A study of Oryza sativa Japonica Group with 8 samples.

Results

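In leaves of rice seedlings (cultivar Nipponbare), 23 of 55801 genes were counted mainly in the libraries from plants grown with carbon dots. They were chosen on the read counts themselves: counts were divided by the library total and multiplied by 1000000 (CPM), and a gene was kept when the lower of its 2 carbon dot values was at least 0.5 CPM and at least 4 times the higher of its 2 control values. The difference between treated and control libraries in these genes therefore follows from the choice and is given as a description, with no test. The same rule with the groups exchanged kept 6 genes (0.0108%), where the rule itself kept 0.0412%.

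Carbon dots are very small fluorescent particles made mostly of carbon. Seeds of the treated group (CD) were sown on 1/2 MS, a mineral salt medium, with carbon dots at 0.56 mg/ml, and those of the control group (CK) on 1/2 MS alone. The labels name these as a nano-hydroponic carbon dot treatment and an ordinary hydroponic treatment, and give an age of 2 weeks where the treatment protocol gives 3 weeks. Each group has 2 RNA-seq libraries, and the labels do not say whether these came from separate plants. The same 2 groups also have 4 bisulfite sequencing samples, which were not analysed here.

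Rice seedlings answer microbes, ultraviolet light and heavy metals by making phytoalexins, small antimicrobial compounds, many of which are labdane-related diterpenoids. In that pathway copalyl diphosphate synthases close the first rings of a common precursor, kaurene synthase-like (KSL) cyclases shape the final hydrocarbon, and cytochromes P450 oxidise it. Symbols were sought only through 48 pairs of identifier and symbol entered from memory after the data had been seen. Of these pairs, 16 were genes of diterpenoid phytoalexin synthesis. The only member of the 23 among the 48 was a KSL cyclase, KSL7. The count table pairs no identifier with a name, and the reference gene table carries none of these identifiers, so the other 22 genes are given by identifier and no function is stated for them.

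The CD libraries totalled 74853055 counts (replicate 1) and 49281927 counts (replicate 2), and the CK libraries 80317398 and 60763633, in the same order. Values below keep this order, replicate 1 first. Of these, the 23 genes held 21309 and 8206 counts in the CD libraries and 1218 and 882 in the CK libraries, or 284.7, 166.5, 15.2 and 14.5 CPM. A chi-square per degree of freedom over genes was 137.7 between the CD libraries and 81.6 between the CK libraries. Across groups it ran from 116.4 to 223.8, so no pair of libraries agreed within sampling noise. CD replicate 2 had lower values with CK replicate 1 (116.4) and CK replicate 2 (125.2) than with CD replicate 1. The measure rises with library depth, which differed between the libraries. The leaf label was checked on markers whose symbols matched the reference table. The level of CAB2R, a chlorophyll-binding antenna protein of leaf chloroplasts, lay at 237 and 847 CPM in the CD libraries and 1692 and 585 CPM in the CK libraries. The root transporters LSI1 and NRAMP5 lay between 13.3 and 30.5 CPM over the 4 libraries, and CESA4 and CESA7, cellulose synthases of secondary walls, between 197.8 and 604.6 CPM. PCNA, a replication clamp of dividing cells, lay between 20.1 and 24.5 CPM. OSH1, a shoot meristem gene, was at 0 counts in both CD libraries and at 1.46 and 0.691 CPM in the CK libraries. CD replicate 1 had the lowest CAB2R level. It was the higher CD library in 15 of the 23 genes (65.2%), against 52.7% of genes with at least 0.5 CPM in both CD libraries. The part of tissue make-up in the levels of the 23 genes was not tested. In bulk leaves, more cells that use a gene and more RNA per cell cannot be told apart.

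The rule kept 0.0412% of all genes, or 0.102% of the 22601 genes with at least 0.5 CPM in both CD libraries. The exchanged rule kept 0.0267% of the 22493 genes with at least 0.5 CPM in both CK libraries. Among those 22601 genes, 6990 had CD above CK in every pairing of libraries, 160 by a ratio of at least 2, the 23 by at least 4 and 5 of these by at least 8. The number rests on having every library, and by the form of the rule leaving a library out can only keep or raise it. Without CD replicate 2, 325 genes met the rule, 302 of them not among the 23, and 58 met it without CD replicate 1. The number was 53 without CK replicate 1 and 84 without CK replicate 2. Scaling by library totals placed the median of all genes tested 0.11 higher in CD on the log2 scale, and with library sizes from TMM, which removes most of that shift, 22 of the 23 genes remained. The gene lost was LOC_Os11g06550, the shortest of the 23. As background to the 6990, 27.7% of all genes with at least 10 counts had CD above CK in every pairing by library totals. CD lay below in 14.35%. With TMM library sizes, 17.7% were above and 20.5% below, so no excess toward CD is read from the 6990.

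**Figure D1:**
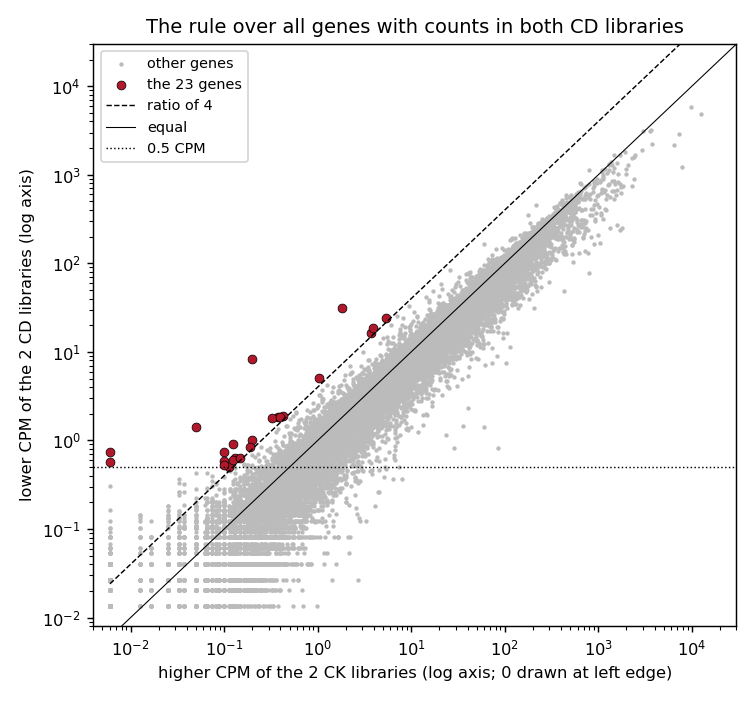
Each point is a gene with counts in both CD libraries, with the higher of its 2 CK values on the x axis and the lower of its 2 CD values on the y axis, in CPM on log axes. The 23 genes (red) lie above both the dashed line at a ratio of 4 and the dotted line at 0.5 CPM, and 2 of them have 0 counts in CK and are drawn at the left edge.

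Of the 23 genes, 6 had at least 5 CPM in both CD libraries. LOC_Os04g27670, on chromosome 4 from 16349934 to 16354016 in the coordinates of the count table, was at 31.2 and 44.3 CPM in CD and at 0.573 and 1.81 CPM in CK. Its lower CD value was 17.2 times its higher CK value, and its CD libraries differed by less than 2-fold. LOC_Os03g58320, on chromosome 3 from 33226460 to 33228543, was at 41.7 and 24.3 CPM in CD and at 4.61 and 5.41 CPM in CK. It had the highest CK values of the 23, and its CK libraries lay close together. LOC_Os09g17560, on chromosome 9 from 10740340 to 10741911, was at 31.8 and 18.4 CPM in CD and at 2.48 and 3.88 CPM in CK. LOC_Os07g05365, on chromosome 7 from 2456968 to 2458151, was at 16.2 and 22.6 CPM in CD and at 3.69 and 1.12 CPM in CK. These last genes were plainly present in control leaves too, so "mainly" describes a difference of level and not presence against absence: 5 of the 23 had at least 1 CPM in a CK library. The other members above 5 CPM were LOC_Os04g52440 and LOC_Os01g43740, on chromosome 1 from 25060764 to 25063609. LOC_Os01g43740 was at 13.4 and 5.01 CPM in CD and at 1.03 and 0.198 CPM in CK.

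The widest separations between the groups were found in genes with few control counts. LOC_Os04g52440, on chromosome 4 from 31169012 to 31174731, was at 13.8 and 8.28 CPM in CD and at 0.0747 and 0.198 CPM in CK, from 6 and 12 counts. Its lower CD value was 41.9 times its higher CK value, the largest ratio among the 21 members with a CK count. LOC_Os07g44440, on chromosome 7 from 26551781 to 26552660, followed at 28.5 times, with 409 and 70 counts in CD and 4 and 2 counts in CK. Its CD libraries were less alike, at 5.46 and 1.42 CPM. The gene beside it, LOC_Os07g44430, matched the symbol R1C-Prx, a 1-Cys peroxiredoxin, an enzyme that reduces peroxides. R1C-Prx had 0.294 and 0.0406 CPM in CD, and 0 and 0.0329 CPM in CK. It met neither the limit on the level nor the limit on the ratio.

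Only 2 members had no count in either control library. LOC_Os04g01810, on chromosome 4 from 520182 to 524507, had 56 and 1256 counts in the CD libraries. Against a floor of 3 counts over the CK group (0.0213 CPM), its pooled CD level of 10.6 CPM was at least 497-fold higher, but nearly all of that came from CD replicate 2. LOC_Os07g11790, on chromosome 7 from 6515622 to 6522044, had 43 and 31 counts in CD and was at least 28.0-fold higher by the same floor. Its CD libraries were level, at 0.575 and 0.629 CPM. Floors cover counting error only. Control counts were low in most of the set: 13 of the 23 had 20 or fewer counts over both CK libraries, and 18 stayed under 0.5 CPM in each.

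The CD libraries differed from each other more in these genes than in most. The median fold between them was 1.78 for the 23 genes and 1.22 for the 22601 genes with at least 0.5 CPM in both. A difference of over 2-fold between the CD libraries was found in 10 of the 23 (43.5%, against 9.42% of the 22601), and of over 4-fold in 4 (17.4%, against 0.947%). The rule used the same CD values, and the 22601 genes were more abundant than the 23, so these shares are a description. The part of abundance in them was not tested. CD replicate 1 was the higher of the pair in 15 of 23 (65.2%, against 52.7% of the 22601). The most unequal was LOC_Os01g37000, on chromosome 1 from 20640981 to 20643886, with 6670 and 45 counts in CD, or 89.1 and 0.913 CPM, a 97.6-fold difference within the treated group. In CK it had 10 and 0 counts. It alone held 31.3% of the CPM of the 23 genes in CD replicate 1, so the summed level of the set is not a measure of its typical member. LOC_Os04g01810 went the other way, at 0.748 CPM and then 25.5 CPM in CD. LOC_Os11g14900, on chromosome 11 from 8379342 to 8382036, was at 17.1 and 1.81 CPM in CD and at 0.324 and 0.181 CPM in CK. For LOC_Os01g37000 and LOC_Os11g14900 the fold between the CD libraries was larger than the ratio of the lower CD to the higher CK value, which was 7.33 and 5.58. LOC_Os01g37000 averaged 45.0 ± 62.4 CPM in CD and LOC_Os04g01810 averaged 13.1 ± 17.5 CPM (SD, n = 2), where LOC_Os04g27670 averaged 37.8 ± 9.30 CPM.

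**Figure D2:**
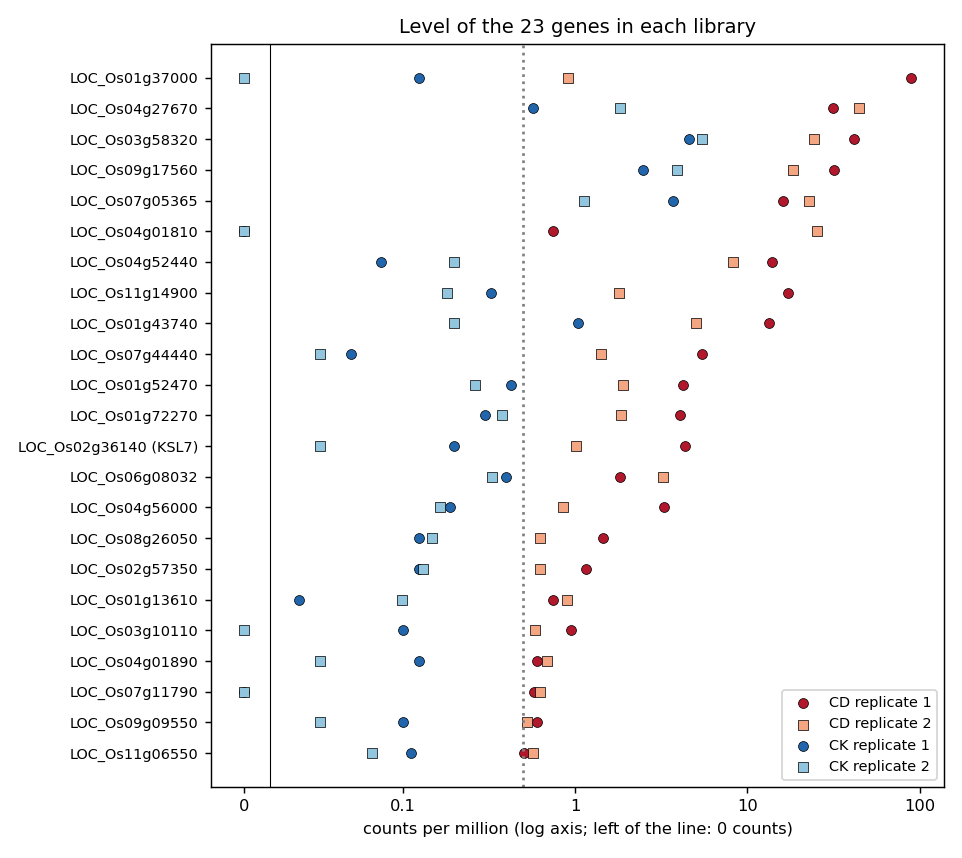
Level of each of the 23 genes in the 4 libraries, in CPM on a log axis, ordered by the CD mean; points left of the thin line are at 0 counts, and where both CK libraries are at 0 their points coincide. The CD points (red) lie right of the CK points (blue) in every row because the genes were chosen so, while the distance between the 2 CD points runs from 1.10-fold to 97.6-fold.

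KSL7 (LOC_Os02g36140), the cyclase that makes the cassadiene skeleton of the phytocassane phytoalexins, lies on chromosome 2 from 21765009 to 21773418. It was at 4.32 and 1.02 CPM in CD and at 0.199 and 0.0329 CPM in CK, from 323, 50, 16 and 2 counts. Both CD libraries lay above both CK libraries, with CD replicate 1 4.25 times CD replicate 2. Of 16 entered genes of diterpenoid phytoalexin synthesis, 14 matched the reference table and KSL7 alone met the rule. KSL7 is left out of what follows, since the rule fixed its direction. With TMM library sizes, 6 of the 11 other matched genes with enough counts to be tested had CD above CK in every pairing of libraries and 1 had it below, against 17.7% above and 20.7% below over all 26271 genes tested. Over all entered identifiers, matched or not, it was 8 of 13 above and 1 below. The median log2 fold change was 1.25 over the 11 and 1.41 over the 13, against 0.007 over all genes tested, and edgeR called 0 of them. KSL7 shares a cluster on chromosome 2 with CYP71Z7, a cytochrome P450, which was at 2.07 and 0.852 CPM in CD and at 0.199 and 0.247 CPM in CK. CYP71Z6, the P450 gene directly next to KSL7, was at 2.10 and 1.18 CPM in CD and at 1.82 and 3.39 CPM in CK, so its groups overlapped. CPS2, the copalyl diphosphate synthase that supplies KSL7 with substrate, was at 4.32 and 1.56 CPM in CD and at 0.0249 and 1.38 CPM in CK. CK replicate 2 kept CPS2 out of the set, since its level there was close to that of CD replicate 2. KSL5, another cyclase gene on chromosome 2, had CD below CK in every pairing, at 0.0935 and 0.284 CPM in CD and at 0.374 and 1.30 CPM in CK. The groups overlapped in KSL6 and in the P450 gene CYP76M6, both also on chromosome 2.

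No gene of the other lists was among the 23, matched or not. They are given on the same scale, with the same shares over all genes tested as background (17.7% above, 20.7% below), and edgeR called 0 genes of any list. In defence and salicylate signalling the matched genes differ from the whole list: 2 of 3 matched genes had CD above CK, with a median log2 fold change of 0.36, and 6 of all 7 entered genes had CD above, with a median of 1.03. In jasmonate synthesis and response, 2 of 4 matched genes were above and 1 below (median 0.05), and 3 of all 6 entered were above and 1 below (median 0.05). Of other stress genes, 2 matched ones were tested, with 0 above, 1 below and a median of 1.03, and of the 4 entered ones tested 1 was above and 1 below (median 1.01). Of the photosynthesis genes, 5 of 6 matched and 6 of all 8 entered were below, both with a median of -1.06. The 6 tissue markers, all matched, had a median of -0.12, with 0 above and 2 below. KSL7 was the only member among all 48 entered identifiers.

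At intermediate level, LOC_Os01g52470, on chromosome 1 from 30143575 to 30146827, was at 4.24 and 1.91 CPM in CD and at 0.423 and 0.263 CPM in CK. LOC_Os01g72270, a gene of a single exon on chromosome 1 from 41900002 to 41901651, was at 4.04 and 1.85 CPM in CD and at 0.299 and 0.379 CPM in CK. Both had CD replicate 1 about as far above CD replicate 2, at 2.22-fold and 2.19-fold. LOC_Os06g08032, on chromosome 6 from 3893672 to 3895400, was at 1.82 and 3.23 CPM in CD, higher in replicate 2, and at 0.398 and 0.329 CPM in CK. LOC_Os04g56000, on chromosome 4 from 33351839 to 33352460, was at 3.26 and 0.852 CPM in CD and at 0.187 and 0.165 CPM in CK.

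The remaining 8 members, LOC_Os07g11790 included, were near the lower limit, with 26 to 108 counts in each CD library and 0 to 10 in each CK library. These were LOC_Os08g26050, LOC_Os02g57350, LOC_Os01g13610, LOC_Os03g10110, LOC_Os04g01890, LOC_Os09g09550 and LOC_Os11g06550. In all, 11 of the 23 had a lower CD value under 1 CPM. At the limit of 0.5 CPM a gene has 37.4 and 24.6 counts in the CD libraries, so counting error alone can move such genes across it. Just inside that limit were LOC_Os11g06550 at 0.508 CPM and LOC_Os09g09550 at 0.528 CPM. Just outside were LOC_Os06g38870 and LOC_Os04g05560, both at 0.426 CPM in CD replicate 2, with ratios of 6.47 and 8.63, and LOC_Os07g03790 at 0.401 CPM in CD replicate 1. At the limit on the ratio, LOC_Os08g26050 was just inside at 4.25, LOC_Os07g05365 followed at 4.38 and LOC_Os03g58320 at 4.48. Just outside were LOC_Os11g37950 at 3.61, LOC_Os03g63620 and LOC_Os09g25690, both at 3.54. LOC_Os11g37950 was as abundant as the leading members, at 35.2 and 25.2 CPM in CD and at 3.29 and 6.98 CPM in CK.

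Levels can be compared between genes only per length. In the deposited TPM, counts scaled by gene length and library, the CD mean of the 23 genes ran from 0.471 to 54.3 TPM with a median of 6.03 TPM, and the CK mean had a median of 0.212 TPM and reached 6.64 TPM. The highest level per length was that of LOC_Os07g05365 at 54.3 TPM in CD, followed by LOC_Os01g37000 at 52.6 TPM, which rested on CD replicate 1. Even in treated leaves the set was of low abundance. The median CD mean of the 22601 genes was 16.8 TPM, 26.6% of these lay below the median of the 23, and 4383 were at or above the highest of the 23.

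In the edgeR fit over all 26271 genes, the log2 fold changes of the 23 ran from 2.44 to 12.73 with a median of 3.42, by edgeR's quasi-likelihood test with Benjamini-Hochberg adjustment. These come from the contrast that chose the genes. The fitted values of the 2 genes at 0 in both CK libraries depend on the prior count. LOC_Os01g37000 had 9.18 ± 2.61 (SE), with most of its counts in CD replicate 1. edgeR called 0 of the 23 at an adjusted p of 0.05 and 0 genes in all (background 0% called higher), and the adjusted p of the 23 lay between 0.46 and 0.484. At an unadjusted p under 0.05, edgeR had all 23, against 3.33% of all genes tested that were higher in CD. DESeq2 called 17 of the 23, against a background of 0.856% called higher, gave no adjusted p for 5 with low counts, and left out LOC_Os01g37000 (adjusted p = 0.0892), the gene with the widest gap between CD libraries. Nothing about the members is read from these counts, since the rule used the same values. LOC_Os04g52440, with the largest ratio among the members with a CK count, had a log2 fold change of 6.27 ± 0.56 (SE) by edgeR.

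Gene length and exon number were not used by the rule. Exon length summed over a gene had a median of 1527 bases in the 23 (quartiles 1196 and 2004), 1798 bases in the 22601 genes with at least 0.5 CPM in both CD libraries and 1383 bases over all genes. A limit in CPM favours long genes, since these gather more reads at the same level, so the 22601 genes passed the same lower limit, although they are more abundant than the 23. The shortest member, LOC_Os11g06550, had 171 bases of exon, and LOC_Os08g26050 had 264 bases spread over 5 exons. The longest was KSL7 at 3252 bases. With the rule applied to the deposited TPM, 40 genes met it with a median of 732 bases, so the length of the set depends on the unit of the rule. Under 700 bases were 5 of the 23 (21.7%), against 6.45% of the 22601 genes and 26.0% of all genes.

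The number of exons was taken from the entries in the start column of the count table, which repeats an exon for each transcript that holds it. The median was 5 entries in the 23 genes, 5 in the 22601 genes and 3 over all genes. Entries overstate exons where a gene has several transcripts: KSL7 had 42 entries and 12 exons once overlapping ones were merged, and LOC_Os11g14900 had 25 entries and 5 exons. These were the only members with repeated entries (8.70%, against 27.2% of the 22601 genes). After merging, the median was 5 exons in the 23, 4 in the 22601 genes and 3 over all genes. LOC_Os04g52440 had most, with 19 exons. Single-exon genes made up 4 of the 23 (17.4%, against 16.4% of the 22601 genes and 22.3% of all genes), namely LOC_Os01g72270, LOC_Os04g01890, LOC_Os04g56000 and LOC_Os09g09550. The median number of entries rests on having every library: among the genes that met the rule it was 2 without CD replicate 2, 3 without CK replicate 1 or CK replicate 2, and 4 without CD replicate 1. No test over genes was run on these measures.

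**Figure D3:**
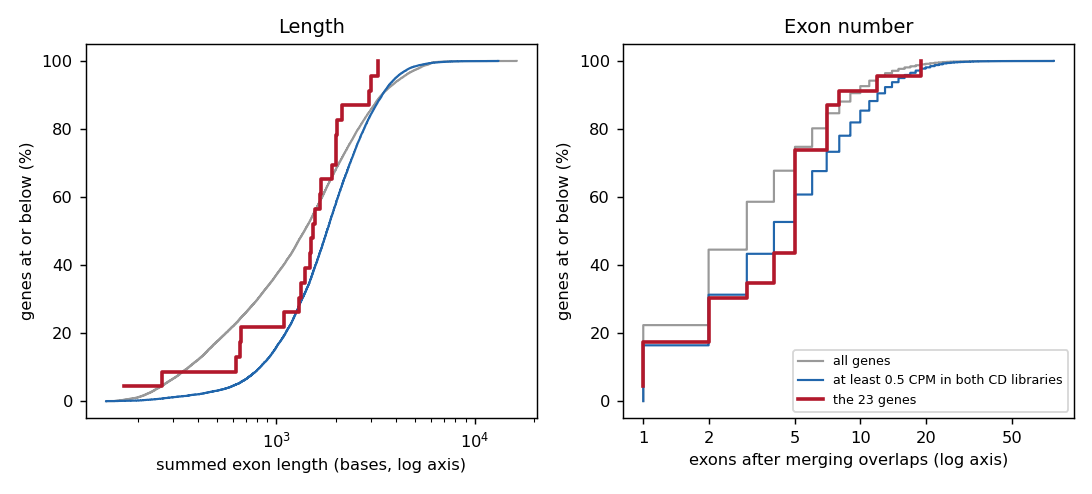
Cumulative share of genes by summed exon length in bases (left) and by number of exons after merging overlaps (right), on log axes, for the 23 genes (red), the 22601 genes with at least 0.5 CPM in both CD libraries (blue) and all 55801 genes (grey). The red length curve sits left of the blue curve through most of its range, with medians of 1527 and 1798 bases, while the exon curves have medians of 5, 4 and 3.

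The 23 genes lay on 9 of 12 chromosomes. Chromosomes 1 and 4 held 5 each (21.7% of the set each, with 11.7% and 9.53% of all genes), chromosome 7 held 3, and chromosomes 5, 10 and 12 held none. No member had another within 20000 bases, and none of the 46 genes directly next to a member was itself a member, where 0.0412% of all genes are members. Among the larger numbers of genes that met the rule with a library left out, some did lie within 20000 bases of another: 81 of 325 without CD replicate 2, 6 of 58 without CD replicate 1, 2 of 53 without CK replicate 1 and 11 of 84 without CK replicate 2. At a ratio of 2 it was 29 of 160. No share was computed for as many genes taken from all genes, so these counts cannot tell clustering from the larger size of the sets. The closest of the 23 were LOC_Os04g01810 and LOC_Os04g01890 (chromosome 4 from 560485 to 562482), with 35977 bases and 6 genes between them. Of these 6 genes, 4 had no count in any library, LOC_Os04g01850 was at 1.26 and 0.426 CPM in CD and at 0.735 and 0.329 CPM in CK, and LOC_Os04g01874 was at 2.61 and 0.487 CPM in CD and at 0.535 and 0.658 CPM in CK. Both had overlapping groups, so no block of neighbouring genes stood higher there. The 2 members also differed in level, since LOC_Os04g01890 was at 0.601 and 0.690 CPM in CD and at 0.125 and 0.0329 CPM in CK. The next closest, LOC_Os04g52440 and LOC_Os04g56000, were 2177107 bases apart, and the median over the 14 gaps between successive members was 8.67 Mb.

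Genes beside the members were described with the members left out. Of the 46 direct neighbours, 25 had at least 10 counts over the 4 libraries, and 11 of these 25 (44.0%) had CD above CK in every pairing of libraries, while 1 had them below. Of the genes 2 to 5 places away with as many counts, 32 of 103 (31.1%) were above and 8 below. Over all genes with at least 10 counts, 27.7% were above and 14.35% below. The median log2 ratio of mean CPM + 0.1 was 0.60 in the direct neighbours, 0.18 at 2 to 5 places and 0.10 over all genes. With TMM library sizes, a scaling added after seeing the data, 9 of the 25 direct neighbours (36.0%) were above and 3 below, and 23 of 103 at 2 to 5 places (22.3%) were above and 17 below, against 17.7% above and 20.5% below over all genes. The medians were then 0.50, 0.08 and 0.01. Neighbours are few and share libraries and surroundings with the members, so these shares are a description with no test.

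Among the direct neighbours, LOC_Os04g55980, beside LOC_Os04g56000, had the largest log2 ratio, 2.59, at 1.38 and 0.223 CPM in CD and at 0.0498 and 0.0494 CPM in CK. Further along the same stretch, LOC_Os04g56030 was at 2.16 and 0.812 CPM in CD and at 0.262 and 0.313 CPM in CK, and LOC_Os04g56040 was at 5.75 and 1.54 CPM in CD and at 0.934 and 0.708 CPM in CK. All had CD replicate 1 well above CD replicate 2, as LOC_Os04g56000 itself did. LOC_Os01g43750, next to LOC_Os01g43740, was at 6.05 and 2.07 CPM in CD and at 1.17 and 1.73 CPM in CK. Near LOC_Os08g26050, LOC_Os08g26010 was at 3.26 and 1.77 CPM in CD and at 0.423 and 0.510 CPM in CK. The genes beside LOC_Os04g27670 had few counts or none. LOC_Os04g27660 had 11 counts, in CD replicate 2 alone (0.223 CPM), and so just passed the limit of 10 counts. LOC_Os04g27680 had none. LOC_Os04g52450, the abundant gene next to LOC_Os04g52440, was at 175.2 and 176.1 CPM in CD and at 145.4 and 125.8 CPM in CK, a log2 ratio of 0.37 beside a member with 81.2 times more CPM in CD than in CK. Only LOC_Os03g10110 (chromosome 3 from 5116235 to 5119702) overlapped another gene, LOC_Os03g10120 on the opposite strand, which had 4889 counts. Whether counting used strand is not given in the sources used here, so reads of these genes may not be told apart. LOC_Os03g10110 had 71 and 29 counts in CD and 8 and 0 in CK.

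**Figure D4:**
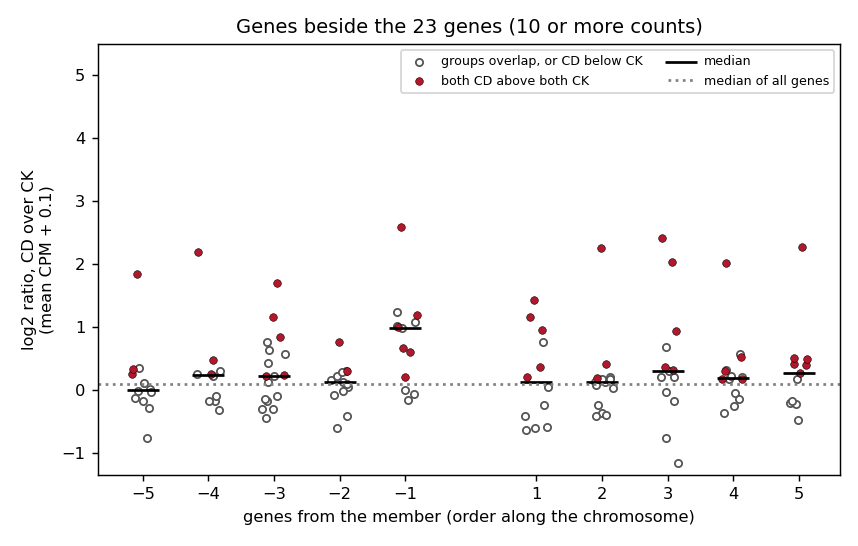
Log2 ratio of mean CPM + 0.1, CD over CK, for genes up to 5 places from a member along the chromosome, members excluded and limited to genes with at least 10 counts; filled points have both CD libraries above both CK libraries, black bars are medians and the dotted line is the median of all genes, 0.10. Filled points are 11 of 25 directly beside a member and 32 of 103 at 2 to 5 places.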

How the data were processed

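RNA-seq of rice leaves gave 4 libraries, 2 per group. The authors deposited a table of raw read counts and TPM, counts scaled by gene length and library, per gene, with exon coordinates and gene length. Per the submitters' processing notes, tools of the series included fastp 0.21.0, HISAT2 2.0.5 and featureCounts 1.6.4. No source used here gives the genome build, the annotation or the strand setting of counting, so coordinates are those of the table (counted from 1). The deposited TPM equal counts per length, scaled, within a tolerance of 0.0001.

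CPM were computed from the counts and column totals. Overlapping exon entries were merged for each gene. All genes passing edgeR's expression filter (26271) were fitted together with edgeR 4.0.16 in R 4.3.3 (TMM, quasi-likelihood test, CD against CK, no covariates, threshold 0.05). The SE given with an edgeR log2 fold change is its absolute value divided by the square root of the test's F statistic. DESeq2 1.42.0 and limma 3.58.1 on log2 TPM were alternatives. The fits were tested on simulated data. With 2 libraries a group, an exact permutation test of a single value cannot go below p = 0.333, so none was run, and p-values measure the spread between these libraries, which may be technical.

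The 23 genes and the lists were chosen with earlier results of these data known. Genes to name were the 10 members with the highest CD mean, the 5 with the largest ratio, members at 0 in CK, the closest neighbours, members with a symbol, and the 3 genes on each side of each limit. The remaining members and other neighbouring genes were named after their values were seen. Symbols came from 48 identifier and symbol pairs entered from memory after the data had been seen. A pair counted as matched (36 did) when the RefSeq gene table of assembly ASM3414082v1 held the symbol on the same chromosome, starting within 1.5 Mb and with a span within 10%. That assembly was used for names only. Unmatched identifiers are counted in the lists but not named. Counts of list genes use TMM library sizes, chosen after seeing the data. The bisulfite samples were not analysed here.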

Additional observations from a re-analysis of the deposited data

How the results depend on the processing

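The number of genes meeting the rule stayed at 22 or 23 with TMM or DESeq2 size factors, or with totals without the 20 top genes, and was 25 with a ratio of TPM + 0.1, though only 17 of these were among the 23. It was 40 with the deposited TPM, of which 22 were among the 23, and 6 with a ratio of TPM + 1. It was 401 with no lower limit, 12 at 1 CPM and 6 at 5 CPM, and 160 at a ratio of 2 and 5 at a ratio of 8. Leaving out each library gave 53 to 325, the highest without CD replicate 2, and all 23 stay in by construction. The median exon length, 1527 bases, was 732 bases with the deposited TPM and 706 bases with a ratio of TPM + 0.1, and the median number of exon entries, 5, was 2.5 and 3. edgeR called 0 genes under each alternative run except without a filter on low counts (29 genes, 14 higher in CD, of which 5 were members), against 513 by DESeq2 (203 higher). At an unadjusted p under 0.05, edgeR had 2286 genes.

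The difference between replicates 1 and 2 in CD correlated at -0.141, across genes, with that in CK. With 2 libraries a group, this value cannot show whether the replicate numbers pair the libraries. With the replicate block, edgeR called 0 genes (1670 at an unadjusted p under 0.05), and 0 with the crossed pairing, chosen after seeing the data (2922). The sign of the 23 log2 fold changes is fixed by the choice of genes and says nothing of stability. With 26 to 108 counts in each CD library, depth limits the 8 lowest members.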
